A study of Saccharomyces cerevisiae with 6 samples.

Results

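The 7 genes that encode the subunits of the Arp2/3 complex of budding yeast, ARP2, ARP3, ARC15, ARC18, ARC19, ARC35 and ARC40, were followed through an experiment in which yeast made an active or an inactive mammalian lipid kinase. They were taken by gene symbol from the deposited array table, each was represented by 1 probe set, and all 7 were among the 5350 genes tested. No pair of them shares a chromosome in the R64 reference gene table. All cultures were transformants of the haploid Saccharomyces cerevisiae strain BY4741 grown in raffinose medium and given 2% galactose for 4 h at 30 °C. The galactose switched on either p110α-CAAX (PI3K, 3 cultures) or its kinase-dead form p110α-CAAX K802R (KD, 3 cultures). p110α is the catalytic part of a lipid kinase of mammalian cells, encoded by PIK3CA, and the CAAX motif sends it to membranes. The comparison thus asks what the kinase activity does beyond the galactose shift and the production of the protein, which both groups share. Each culture was a biological replicate on 1 Affymetrix array.

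Arp2/3 starts new actin filaments as branches on the sides of existing ones. Arp2 and Arp3 resemble actin and act as the first building blocks of the branch, Arc35 and Arc19 form the core that grips the mother filament, and Arc40, Arc18 and Arc15 complete the complex. In yeast the branched network pushes vesicles inward at cortical actin patches, the sites of endocytosis, where Las17 and its partners switch the complex on. Patch assembly depends on a plasma membrane phosphoinositide that Mss4 makes and that p110α uses as its substrate. The arrays report transcript levels and say nothing of the amount or activity of the assembled complex.

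Values were log2 summaries of probe sets, with array medians between 9.49 and 9.54 and the 7 genes between 10.74 and 12.66. The strain was checked by its mating type and marker genes. The 5 a-cell genes measured (MFA1, MFA2, STE2, BAR1 and AGA2) lay between 10.60 and 12.85 on every array. MF(ALPHA)1 and MF(ALPHA)2 lay between 4.32 and 5.86, and MET17 and URA3, which are deleted in BY4741, between 3.11 and 4.03. HIS3 (10.96 to 11.23) and LEU2 (12.14 to 12.65), which are also mutated in that strain, read high in both groups, and the labels do not say which marker the transgene carries. STE3, the receptor gene of alpha cells, was at 6.80 to 7.26 in KD and 7.56 to 8.09 in PI3K (log2 fold change 0.85, adjusted p = 0.145), while MF(ALPHA)1 and MF(ALPHA)2 had differences of -0.40 and -0.10. Its part in what follows was not tested. The arrays also differed in a way that the groups do not account for. After subtraction of the group means, the leading principal component took up 70.4% of what was left. It had PI3K 1, KD 3 and PI3K 3 at one end, called side A here, and KD 1, KD 2 and PI3K 2 at the opposite end, called side B. The labels name no batch, and this division comes from the values themselves.

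All 7 subunit transcripts had a higher mean in PI3K than in KD, by 1.23-fold to 1.62-fold, with a median log2 fold change of 0.44 where the median of all genes was -0.00. No single subunit passed the test across all genes (limma, Benjamini-Hochberg adjusted p between 0.218 and 0.710), a test that called 0.243% of all genes and 0.224% as higher in PI3K. The share of all genes with a positive difference was 49.7%. It was 64.4% (median 0.07) among genes of 1001 to 1500 bases, where 4 of the subunits fall. Among genes of up to 600 bases, where the other 3 fall, it was 48.1% (median -0.01). For 4 of the 7 subunits the 3 PI3K values lay above all 3 KD values, against 10.2% of all genes, and for none did they lie below, against 10.5%. Of the 7, 5 had an unadjusted p under 0.05 with PI3K higher, against 7.94%. The members were named with earlier results of these data known, and they share arrays, so these counts describe the complex and do not test it. In bulk cultures a moderate difference in every cell and a larger one in some of the cells cannot be told apart.

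**Figure D1:**
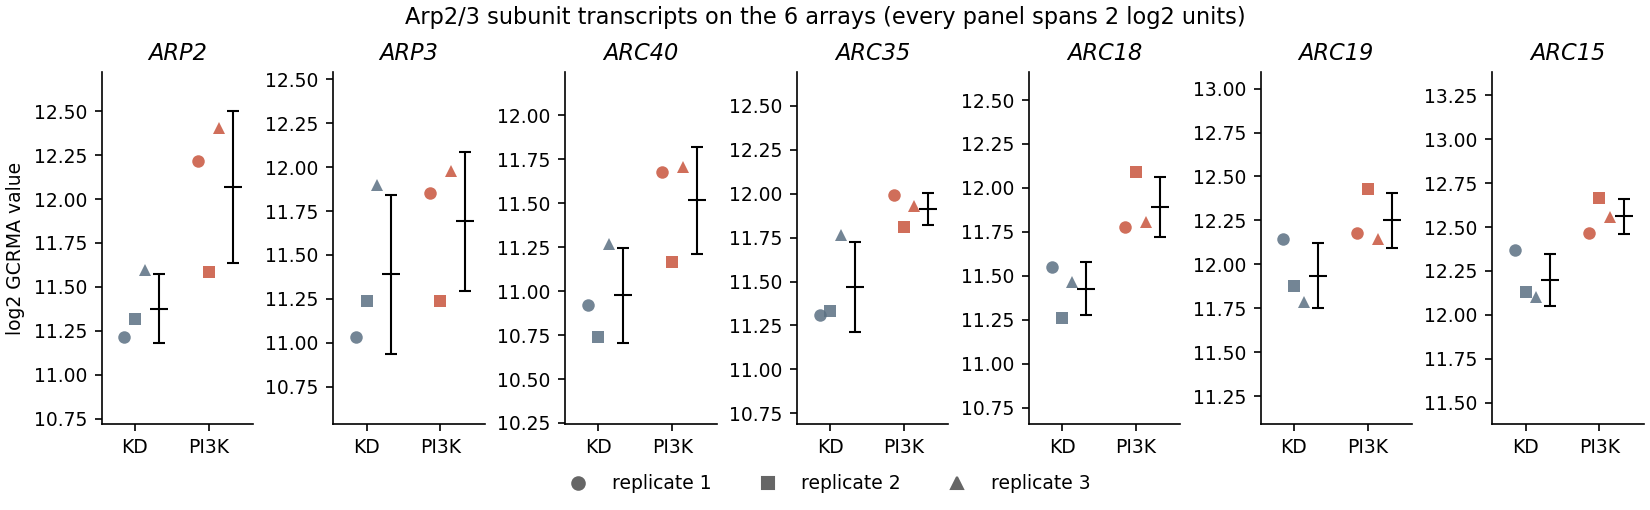
Log2 GCRMA value (vertical axis) of each Arp2/3 subunit in KD (grey) and PI3K (red), with 1 point for each array shaped by replicate number, and the mean ± SD of 3 arrays beside them. Every PI3K mean is above its KD mean, and the groups overlap for ARP2, ARP3 and ARC40.

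The pair of actin-like subunits gave the largest and the smallest difference. ARP2 read 12.21, 11.58 and 12.41 on PI3K arrays 1 to 3 and 11.21, 11.32 and 11.59 on KD arrays 1 to 3. PI3K 1 and PI3K 3 were well above every KD array, but PI3K 2 fell just under KD 3, so the groups overlapped. Its mean was 12.07 ± 0.43 (SD, n = 3) in PI3K and 11.38 ± 0.20 in KD, a 1.62-fold difference (log2 fold change 0.69, SE 0.23, 95% confidence interval 0.15 to 1.23, limma adjusted p = 0.248). Of all genes, 2.39% had a log2 fold change as high. ARP3 read 11.86, 11.24 and 11.98 in PI3K against 11.03, 11.24 and 11.90 in KD. Here KD 3 lay between the 2 higher PI3K arrays, and PI3K 2 was level with KD 2. The difference of 0.30 (SE 0.28, 95% confidence interval -0.36 to 0.97, limma adjusted p = 0.710) was within the spread of either group, whose SDs were 0.40 and 0.45. It ran from 0.12 without KD 1 to 0.56 without KD 3.

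ARC40 encodes the propeller-shaped subunit of the complex, built of WD repeats. It read 11.68, 11.17 and 11.71 in PI3K and 10.92, 10.74 and 11.27 in KD. As for ARP2, PI3K 1 and PI3K 3 stood above all KD arrays and PI3K 2 lay under KD 3. The log2 fold change was 0.54 (SE 0.20, 95% confidence interval 0.06 to 1.02, limma adjusted p = 0.293), the second largest of the 7.

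The core subunits, which bind the mother filament, both had groups that did not overlap. ARC35 read 11.99, 11.81 and 11.93 in PI3K and 11.31, 11.33 and 11.77 in KD. KD 1 and KD 2 lay close together and KD 3 lay just under PI3K 2, the lowest PI3K array. KD 3 was the highest KD array here, as it was for ARP2, ARP3 and ARC40, where it passed PI3K 2. The log2 fold change was 0.44 (SE 0.15, 95% confidence interval 0.08 to 0.81, limma adjusted p = 0.262). ARC19 read 12.18, 12.43 and 12.14 in PI3K and 12.14, 11.87 and 11.79 in KD. Its groups were parted by less than the printed decimals, between PI3K 3 and KD 1, and here PI3K 2 was the highest array and KD 3 the lowest. The log2 fold change was 0.32 (SE 0.14, 95% confidence interval -0.02 to 0.66, limma adjusted p = 0.379).

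The remaining small subunits, like ARC19, were highest on PI3K 2, and KD 1 was the highest of their KD arrays. ARC18, which has the smallest p of the complex, read 11.78, 12.09 and 11.81 in PI3K and 11.55, 11.26 and 11.47 in KD, with PI3K 2 highest. Its log2 fold change was 0.47 (SE 0.14, 95% confidence interval 0.14 to 0.79, limma adjusted p = 0.218), a 1.38-fold difference. ARC15 read 12.47, 12.66 and 12.56 in PI3K and 12.37, 12.13 and 12.10 in KD. PI3K 2 was again the highest array and KD 3 the lowest, and the SDs of 0.10 and 0.15 were small beside most of the complex. The log2 fold change was 0.36 (SE 0.12, 95% confidence interval 0.07 to 0.65, limma adjusted p = 0.258). The confidence intervals of all 7 subunits overlap one another, and differences between subunits were not tested.

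Whether the complex moves together was read from the deviation of each subunit from its own KD mean on each array. All 7 subunits were above their KD mean on PI3K 1 (median deviation 0.47) and on PI3K 3 (0.46). On PI3K 2 the median was 0.34, and 6 were above, the exception being ARP3 at -0.15. On KD 2 all 7 were below (median -0.14). On KD 1 and KD 3 the subunits pulled apart, with 3 above and 4 below on KD 1 and 5 above and 2 below on KD 3. The median of all genes stayed between -0.05 and 0.03 on every array.

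The division on KD 1, KD 3 and PI3K 2 followed a pattern that was noticed in these values and gets no test. With the group held fixed, the log2 difference of side A minus side B was 0.30 to 0.72 for ARP2, ARP3, ARC35 and ARC40 and -0.24 to -0.12 for ARC15, ARC18 and ARC19. On KD 3 the mean deviation was 0.33 for the first 4 and -0.07 for the other 3, and on PI3K 2 it was 0.15 and 0.54. The first 4 are the longer genes, of 1029 to 1350 bases in the R64 table, and the other 3 are of 465 to 537 bases. Among all 1248 tested genes of 1001 to 1500 bases, 78.6% were higher on side A (median 0.23), and among all 850 of up to 600 bases 8.71% were (median -0.35). The classes of 601 to 1000, 1501 to 2500 and over 2500 bases had medians of -0.07, -0.05 and -0.13. The subunits thus parted between arrays in the direction of the median of their length class. Every subunit lay above that median, and whether gene length accounts for the division was not tested.

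**Figure D2:**
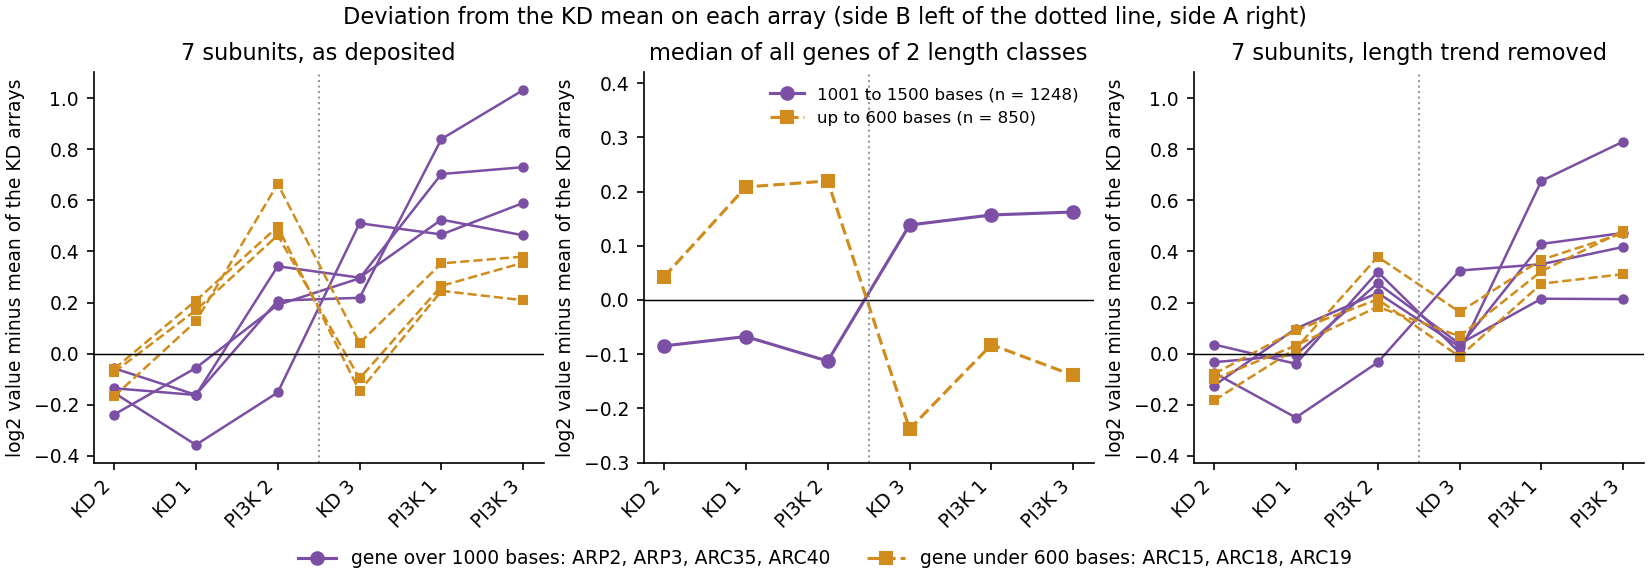
Deviation of the log2 value from the mean of the KD arrays (vertical axis) on each array (horizontal axis, side B then side A). Lines join the values of 1 gene or class and imply no order in time. The left panel holds the 7 subunits as deposited, the middle panel the median of all genes of 1001 to 1500 bases (n = 1248) and of up to 600 bases (n = 850), and the right panel the 7 subunits after a trend of gene length was removed from each array. Longer and shorter subunits diverge in the left panel in the directions of the middle panel. The range of the 7 subunits is narrower in the right panel on every array except KD 2 (0.18 left, 0.22 right).

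A smooth trend on gene length was therefore removed from each array and the test repeated. This setting was added with the pattern above in view. Its trend was fitted to the same values that were then tested, and the test made no allowance for that. The 7 differences stayed positive, between 0.23 (ARC35) and 0.61 (ARP2), with a median of 0.33 where all genes had -0.04 and 42.3% were positive. The standard errors were smaller for all 7 subunits, 0.10 to 0.19 in place of 0.12 to 0.28. The groups were then apart for 6 of 7, all but ARP3, against 8.41% of all genes, and 6 had an unadjusted p under 0.05 with PI3K higher, against 6.64%. Still no subunit passed across all genes (limma adjusted p of 0.136 for ARP2, 0.583 for ARP3 and values between for the others), where 0.299% of genes did. ARC35 lost the largest share of its difference, from 0.44 to 0.23 (SE 0.10), more than 1.5 times. Without the trend ARP3 still stood out on KD 3, at 0.33 above its KD mean, where the other 6 lay between -0.01 and 0.16.

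**Figure D3:**
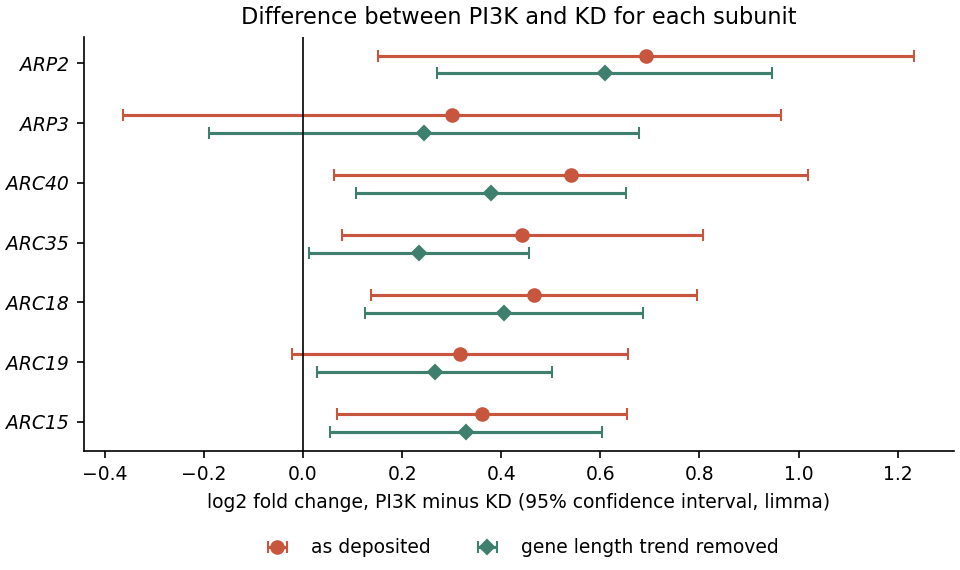
Log2 fold change of PI3K minus KD (horizontal axis) with its 95% confidence interval from limma for each subunit, as deposited (circles) and with the trend of gene length removed (diamonds). All 14 estimates are above 0, the interval of ARP3 includes 0 in both settings and that of ARC19 only as deposited.

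Correlations between pairs of subunits over the 6 arrays show the same features, as a description, since all pairs share arrays and groups. As deposited, 20 of the 21 pairs were positive with a median Pearson r of 0.55. Over all pairs of genes 51.2% were positive and the median was 0.02. ARP2 and ARC40 were the closest pair (0.96) and ARP3 and ARC19 the one that ran opposite (-0.25). With group means removed, 9 of the 21 pairs were positive with a median r of -0.31, against 51.3% and 0.03 over all pairs of genes. In this case the 6 pairs of longer genes had a median r of 0.89 and the 3 pairs of shorter genes 0.75. All 12 pairs of a longer with a shorter gene were then negative, with a median of -0.66. With the length trend removed and groups left in, all 21 pairs were positive (median 0.88, lowest 0.46). With both removed, 16 of 21 were positive (median 0.55, lowest -0.70). The 6 pairs of longer genes were then split, 3 positive and 3 negative, with a median of 0.20. The 3 pairs of shorter genes had a median of 0.70 and the 12 pairs of a longer with a shorter gene one of 0.56. For values without the length trend, no share over all pairs of genes is given here. ARP3 held the lowest values in the third case, 0.46 with both ARC19 and ARC35.

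**Figure D4:**
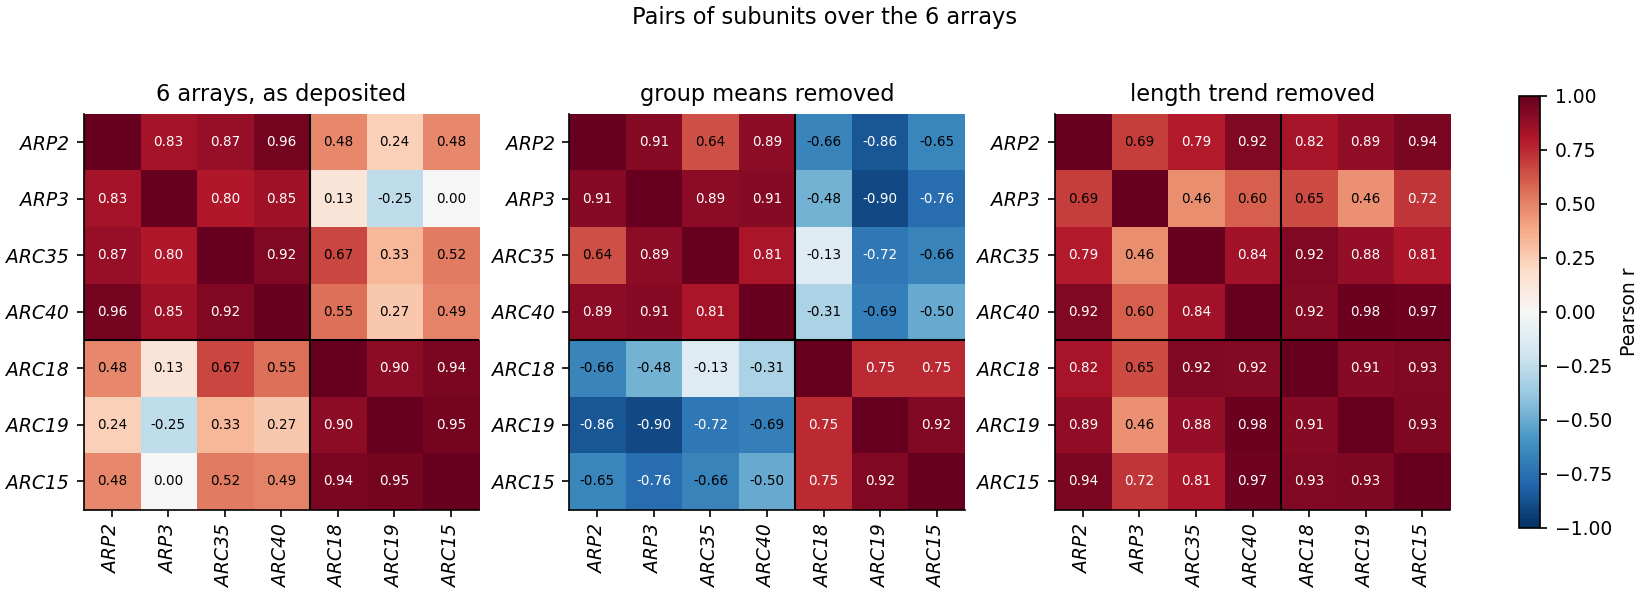
Pearson r of each pair of subunits over the 6 arrays (colour scale from -1 to 1, value printed in each cell), for the deposited values, with group means removed and with the trend of gene length removed. Black lines part the 4 longer from the 3 shorter genes. The off-diagonal blocks turn negative in the middle panel and positive in the right panel.

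Within the sides, where each difference rests on a single KD array (side A) or a single PI3K array (side B), all 7 subunits were again higher in PI3K. The median difference was 0.37 within side A, where 57% of all genes were higher, and 0.41 within side B, where 47.5% were. ARP2 (0.72) led within side A and ARC18 (0.68) within side B, while ARP3 had the smallest difference in each, 0.02 and 0.10. ARC15 (0.41 and 0.41) and ARC19 (0.37 and 0.42) gave nearly the same value on both sides. With array weights, which gave KD 3 the least weight, all 7 subunits passed, but so did 52.5% of all genes.

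The proteins that switch Arp2/3 on and off gave a mixed picture. Of 14 regulators, 10 had a positive difference (71.4%, against 49.7% of all genes), with a median of 0.18. The PI3K values lay above all KD values for 5 of the 14 and below for 1, against 10.2% and 10.5% of all genes. None passed, where 0.243% of all genes did. VRP1, the partner of Las17 in activating the complex, read 9.65, 9.68 and 9.65 in PI3K against 9.01, 8.93 and 9.38 in KD (log2 fold change 0.55, SE 0.14, limma adjusted p = 0.182). Its PI3K arrays were nearly level and all above KD. Among the 5 activators the type I myosin gene MYO3 (0.25) had groups that did not overlap, LAS17 itself differed by 0.20 (SE 0.13), and MYO5 (0.09), ABP1 (0.07) and PAN1 (-0.06) by less than their standard errors. Of the 7 negative regulators, 5 had positive differences, as did 4 of the 5 activators. Among the 5 were PIN3 (0.31, groups apart), LSB1 (0.46, overlapping) and BBC1 (0.33, apart), inhibitors of Las17. The others were SYP1 (0.26, apart) and SLA1 (0.15, overlapping). The coronin gene CRN1 (-0.19, apart) and AIM7 (-0.12), whose product takes branches apart, had negative differences.

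The other patch lists had medians nearer to 0 than that of the subunits, though single genes in them differed as much. ACT1, actin itself, differed by 0.08 (SE 0.11). The 13 genes of actin and filament-binding proteins had a median of 0.12 and all were positive as deposited. The positive count was 12 with the length trend removed, 11 without PI3K 2, and 9 without KD 3 or with array weights. The capping protein genes CAP1 (0.62, SE 0.13, limma adjusted p = 0.141) and CAP2 (0.30), whose products stop filament growth in patches, had groups that did not overlap, and TWF1, the gene of twinfilin, had 0.78 with overlap. The 21 endocytic coat and patch genes had a median of 0.09 with 17 positive, led by END3 (0.35), AIM3 (0.43) and the clathrin light chain gene CLC1 (0.33), each with groups apart. Without PI3K 2 or with the length trend removed the coat median was 0.15, and the median of the filament-binding list was 0.19 without PI3K 1 or without KD 1. Taken as 1 set of 48 genes, regulators, filament-binding and coat proteins had 40 positive differences (83.3%, against 49.7% of all genes). This pooling was not planned and takes in only lists with a positive median. It leaves out the formin and polarisome list and the other actin-related proteins, where 1 of 7 and 1 of 8 were positive. All PI3K values lay above KD for 15 of the 48 and below for 1, against 10.2% and 10.5% of all genes, and none passed.

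Most genes in the list of formins and polarisome proteins did not share the positive direction. The formins, another way to start filaments, assemble unbranched cables rather than branches. BNI1 differed by -0.25 (SE 0.13, groups apart) and BNR1 by -0.01 (SE 0.35), and of 7 formin and polarisome genes 6 were negative with a median of -0.19. HOF1, which acts at the bud neck, was the lowest at -0.43 (limma adjusted p = 0.209), and SPA2 was at -0.27. This list has a median length of 2367 bases, against 1029 for the subunits. All genes of 1501 to 2500 bases had a median difference of -0.09, and all genes over 2500 bases one of -0.14. With the length trend removed the median of the formin and polarisome list was -0.11 with 5 of 7 negative, and without PI3K 2 it was -0.12. The 8 other actin-related proteins, which serve dynactin or chromatin complexes and share with Arp2 and Arp3 only their fold, had a median of -0.12 with 7 negative, ARP9 (-0.15), ARP1 (-0.18) and ARP7 (-0.15) among them, and none passed. Their median length was 1452 bases, and all genes of 1001 to 1500 bases had a median difference of 0.07. The median of these 8 genes was -0.13 with the length trend removed, but -0.03 with 5 of 8 negative without PI3K 2, and -0.01 with array weights. The difference between any of these lists and the subunits was not tested.

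**Figure D5:**
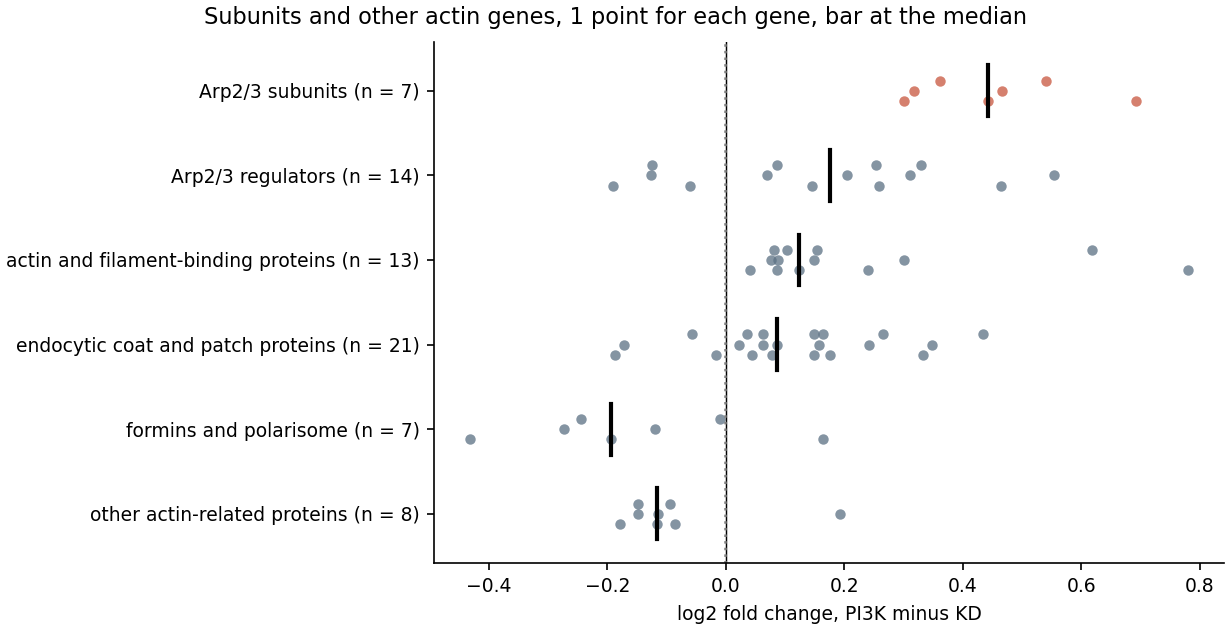
Log2 fold change of PI3K minus KD (horizontal axis) of each gene, 1 point for each, in the Arp2/3 subunits (red) and 5 other actin lists (grey), with a bar at the median of each list and a dotted line at the median of all genes. All 7 subunits lie between 0.30 and 0.69, and each other list reaches lower.

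The genes whose array profile was most like the mean of the 7 subunits, by Pearson r over the 6 arrays, were YTP1, APM4, ERV41, ORT1 and YBR053C, with r between 0.989 and 0.994. APM4 encodes a subunit of the endocytic clathrin adaptor AP-2, ERV41 a protein of vesicles between the endoplasmic reticulum and the Golgi, and ORT1 a mitochondrial ornithine carrier. YBR053C had a log2 fold change of 0.83 and YTP1 one of 0.47, near that of the subunits, while ERV41 (0.17) and ORT1 (0.16) had the same shape at a smaller size. An r of at least 0.95 was reached by 62 of the other 5343 genes.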

How the data were processed

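RNA from 6 yeast cultures was hybridised, after biotin labelling, to 1 Affymetrix array for each culture, per the labels. GCRMA, a method that adjusts each probe for background from its sequence and then normalises arrays and combines the probes, is named in the submitters' processing notes. The deposited values are taken as log2 from their range, since the log base is not given in the sources used here.

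Of 5716 probe sets, 5498 had 1 gene in the platform annotation and 218 had none or several. Gene identifiers led to current symbols in the R64 reference gene table. A gene was tested if at least 3 of the 6 arrays reached a log2 value of 4 (5350 genes), through its probe set of highest mean. The groups were compared with limma 3.58.1 (lmFit and eBayes, two-sided, no block, R 4.3.3) at a Benjamini-Hochberg adjusted p under 0.05 over all 5350 genes, with 4 residual degrees of freedom. With 3 arrays in each group the precision is limited. The test was checked before use on simulated data with independent noise. It recovered 64% of genes changed by a log2 value of 1 and 93% of those changed by 2, with 8 false calls. Smaller differences, such as those of the subunits, and the array sides were not simulated.

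The members, gene lists, rule for named genes and settings were chosen with earlier results of these data known. That rule takes the 7 subunits, any regulator of Arp2/3, the 3 smallest p of each other list, ACT1, BNI1, BNR1 and the 5 genes most like the subunits. The settings were other filters, normalisations and variance models, array weights, a replicate block, mean probe sets, the array side and leaving out each array. The trend on gene length (loess, span 0.5, on the logarithm of the length in the R64 table) was added after the data were examined. A planned search for promoter motifs was not run, as promoter sequences were not used here. Residuals of arrays with the same replicate number correlated at -0.49, 0.48 and 0.39, so the numbers were not taken to pair the samples. Plots came from matplotlib 3.10.9 (Python 3.11.15).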

Additional observations from a re-analysis of the deposited data

How the results depend on the processing

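The 7 subunit differences were positive in all 16 other settings. The other filters, the variance model, the replicate block and mean probe sets cannot change a subunit's fold change, so its sign was fixed there. No subunit was called in 15 of the 16 settings. Array weights were the exception: all 7 passed (median 0.62), but so did 52.5% of all genes (2808), the weights ran from 0.15 (KD 3) to 5.75 (KD 2), and their estimation stopped before its convergence tolerance. Outside that setting the lowest adjusted p of any subunit lay between 0.0684, with the array side in the model, and 0.561, without KD 2. The side was found from the values it is tested with, which makes its p-values too small. The subunits' median was 0.33 with the length trend removed and ran from 0.38 (without KD 2) to 0.56 (without KD 3) when 1 array was left out. Single subunits leaned on single arrays: ARP3 was 0.16 without PI3K 3 and 0.53 without PI3K 2, and 0.06 with the array side in the model. The count of called genes in all was 13, and it was 40 with the replicate block, 185 with the array side, and 0 (without KD 2) to 6 (without KD 3) with 1 array left out. With the replicate block no subunit passed (0 of 7). The causes of these shifts were not tested. Signal over background could be judged from the summaries alone, and 3 arrays in each group limit the precision.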
